A study of Oryza sativa with 16 samples.

Results

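Closely spaced clusters of OsHOX24 regions are stretches of the rice genome with neighbouring ChIP-seq peaks of this transcription factor, often from different libraries. They were found by pooling the deposited summits of 8 ChIP libraries on the 12 chromosomes and joining any summit to the previous one when it lay up to 200 bp away. A summit is the point of highest enrichment within a called peak. This gave 16253 regions, of which 5748 were called in at least 2 lists and are named recurrent regions here. The 10 bins of 100 kb that held on average 0.5% or more of a list's summits were left out, with 438 recurrent regions in them. Of the 5310 recurrent regions that remained, 1751 (33.0%) had their nearest recurrent neighbour within 1000 bp by mean summit position and are the clustered regions. The other 3559 stood alone and are called lone regions. Leaving out WT control replicate 1 and choosing anew gave 1098 clustered regions in 459 clusters, the lowest number for any single library left out. The rule used position and calls in the same lists that are described below, so spacing and recurrence are given as a description, without a test.

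OsHOX24 belongs to the HD-Zip proteins, a plant family that joins a DNA-binding homeodomain to a leucine zipper. The zipper holds 2 copies of the protein together, and the pair grips a short AT-rich palindrome in DNA. Members of subfamily I in rice and other plants are known for responses to water deficit and abscisic acid. In plant promoters, sites for a factor can lie close to each other, and a summit list can show such neighbours only where the peaks are far enough apart to be called separately.

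The 4 ChIP groups were seedlings of the OsHOX24 over-expression line H49 under desiccation, wild-type (WT) seedlings under desiccation, H49 control seedlings and WT control seedlings, with 2 libraries each. All seedlings were 3 weeks old. Desiccation lasted 3 h, between folded tissue paper according to the design text or on dry filter paper according to the protocol, while controls stayed in water. All 4 groups were precipitated with the same antibody against OsHOX24, and WT carries its own OsHOX24 gene, so no group lacks the protein by design. H49 is a single transgenic line, and the sources used here do not name the promoter of its transgene. The labels do not say whether replicates were separate plants, so the p-values rest on the spread among these libraries alone, which may be technical. A further 8 input samples were not analysed here.

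Lists held from 2193 to 9348 summits, and 2 libraries stood apart. WT control replicate 1 had 9348 summits, against at most 4239 in any other list. WT desiccation replicate 2 had a median −log10 p of 19.9, against 6.10 to 7.81 in the other 7. Peak names in each list run without gaps and carry no sub-peak letters, so each summit stands for 1 separately called peak. The number of reads behind the lists is unknown, and a region without a summit in a list is not called there, which does not mean that it is unbound. Of the clustered regions called by either of 2 libraries, the fraction called by both was 0.162 to 0.342 for replicates of a group. Between libraries of different groups it ran from 0.159 to 0.462.

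Clusters were mostly pairs. The 1751 regions formed 718 clusters when neighbours within 1000 bp were chained, of which 519 (72.3%) held 2 regions, 123 held 3, 52 held 4 and 24 held 5 or more. A cluster of 2 spanned a median of 795 bp from first to last summit, a cluster of 3 spanned 1415 bp, and the longest cluster spanned 5458 bp. The 1033 neighbouring pairs inside clusters were 223 to 997 bp apart, with a median of 671 bp and quartiles of 491 and 819 bp. Just inside the limit lay pairs at 997.2 bp on chromosome 6 and at 996.7 and 994 bp on chromosome 4. Just outside it lay pairs at 1001.8, 1003.2 and 1004.3 bp on chromosomes 4, 3 and 12. Distances carried on past the limit without a break, since 892 lone regions (25.1%) had their neighbour within 2000 bp and 1465 (41.2%) had none within 10 kb.

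**Figure D1:**
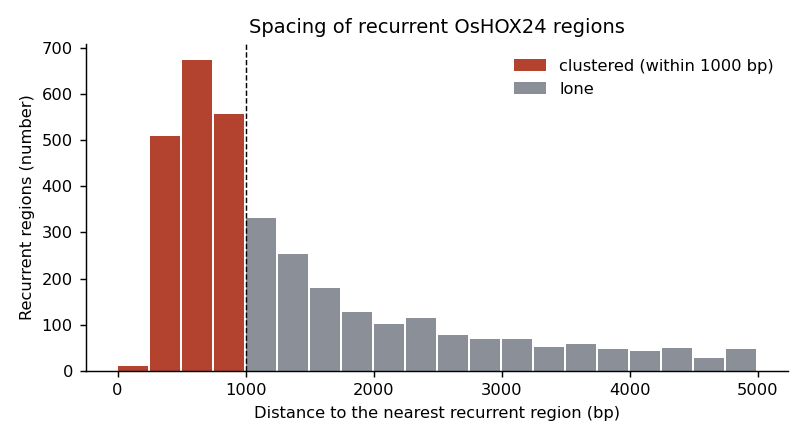
Distance in bp from each recurrent region to its nearest recurrent neighbour (horizontal axis, up to 5000 bp, in steps of 250 bp) against the number of regions (vertical axis). Red bars are clustered regions and grey bars lone regions, with the limit of 1000 bp dashed. Numbers rise to 675 regions between 500 and 750 bp and fall off gradually on the far side of the limit.

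Clustered regions were about as recurrent as lone ones. They were called in 3.26 ± 1.62 lists (SD over 1751 regions), against 3.30 ± 1.73 lists for the 3559 lone regions, with a median of 3 lists in both. Regions called in 2 lists made up 45.5% of clustered and 48.2% of lone regions. Regions called in all 8 lists numbered 65 (3.71%) among clustered and 167 (4.69%) among lone regions. Within a region the summits of all libraries spanned a median of 100 bp in clusters and 94 bp in lone regions. Cluster size made little difference, as clusters of 2 averaged 3.24 lists per region and clusters of 5 or more averaged 3.31.

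Whether clustering goes with more reliable calling was examined on lists that had no part in choosing the regions, a comparison added after the data were seen. Clustered and lone regions were chosen anew on 7 lists and looked up in the list left out. A region counted as called where a summit lay within it or up to 200 bp outside. A single summit could thus count for 2 close neighbours. The left-out list called 33.8% ± 8.28 of clustered regions, against 34.5% ± 14.3 of lone regions (SD, n = 8 libraries). The difference was −0.75 ± 8.23 percentage points, positive in 6 of 8 libraries, and a two-sided exact permutation of signs over libraries gave p = 0.922 (adjusted p = 0.922 over 3 tests). WT control replicate 1 decided its sign. There 44.9% of clustered and 64.6% of lone regions were called, and without this library the difference was 1.97 percentage points (p = 0.172 in the same exact test). The same regions recur in the 8 comparisons, so the p-values speak of how steady a difference was from library to library.

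The strength of the calls gave no constant difference either. Each −log10 p, the authors' own value for a summit, was ranked within its list and given as a percentile. In the left-out list the median percentile was 63.0 ± 12.5 for clustered and 61.3 ± 10.3 for lone regions (SD, n = 8), a difference of 1.72 ± 9.22 percentile points with p = 0.617 in the exact sign-flip permutation test (adjusted p = 0.922) and 4 of 8 libraries positive. WT desiccation replicate 2 had the largest excess, at 59.1 for clustered and 42.5 for lone regions. Without it the difference turned to −0.41 percentile points. When only regions called in at least 3 lists were taken, clustered regions ranked 8.68 percentile points above lone ones (p = 0.00781, the smallest that 8 libraries allow in this exact permutation test, adjusted p = 0.0234). That choice also changed which regions were neighbours, and the cause was not tested. Merging summits up to 500 bp gave 7.58 and keeping the dense bins 6.33 percentile points (adjusted p = 0.141 and 0.164, same exact permutation test), while a limit of 500 bp gave −3.15.

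Neighbours in a cluster could be 2 peaks of the same library or regions that only different libraries called. Both kinds occurred. In the second kind a library could also call neither side, and 45.5% of clustered regions were called in only 2 lists. Of the 1033 pairs, 832 had both sides called in at least 1 library, 160 in 3 or more libraries and 7 in all 8. The remaining 201 (19.5%) were never called on both sides by any library. At the level of clusters, 629 had 2 or more regions called by a single library, while in 89 (12.4%) every library that called the cluster called a single region of it. Within 1 library, 26.9% to 38.1% of the pairs with any call had both sides called.

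Distance separated the kinds. Among the 137 pairs up to 400 bp apart, 84 (61.3%) were never called on both sides. The share was 22.3% of 292 pairs at 400 to 600 bp, 7.57% of 317 pairs at 600 to 800 bp and 9.76% of 287 pairs at 800 to 1000 bp. Summits of a single list were rarely that close. A list held 17 to 123 spacings under 400 bp among its 2193 to 9348 summits, and the nearest summits in each library were 175 to 326 bp apart. Pairs that no library called on both sides had a median spacing of 438 bp, and those called on both sides in 6 or more libraries had one of 674 bp. The 31 pairs of the second kind were also strong, with a median percentile of 93.3, against 47.9 for the 201 pairs of the first kind. These percentiles come from the same lists as the calls and are a description.

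In left-out lists the mean share called on both sides was also lower at short distances. A left-out list called both sides of 22.7% ± 5.56 of the pairs up to 400 bp apart in which it called any side (SD, n = 8 libraries). The share was 24.3% ± 5.93 at 400 to 600 bp, 30.8% ± 5.13 at 600 to 800 bp and 29.5% ± 5.44 at 800 to 1000 bp. Single libraries did not all follow the first step. WT desiccation replicate 1, H49 control replicate 2 and both WT control libraries had a higher share up to 400 bp than at 400 to 600 bp. Beyond the limit the shares were 30.6% ± 7.93 at 1000 to 2000 bp and 28.1% ± 8.98 at 2000 to 5000 bp. The mean at 600 to 800 bp exceeded that up to 400 bp by more than the SD of either class, and this difference between classes was not tested. Where the facing edges of a pair lay up to 400 bp apart, 1 summit between them could count for both sides. The shares at short distances and the comparisons that follow include such calls, and their number was not examined. Pairs within 1000 bp gave 27.7% ± 4.40 and pairs from 1000 to 5000 bp gave 29.3% ± 8.39, a difference of −1.62 ± 10.4 percentage points (p = 0.734, same exact permutation of signs, adjusted p = 0.922, 4 of 8 libraries positive). With a limit of 500 bp the difference was −8.09 percentage points (p = 0.0312, same exact permutation, adjusted p = 0.0938). Without WT control replicate 1, at 23.8% within and 47.1% beyond the limit, the difference was 1.48 percentage points.

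**Figure D2:**
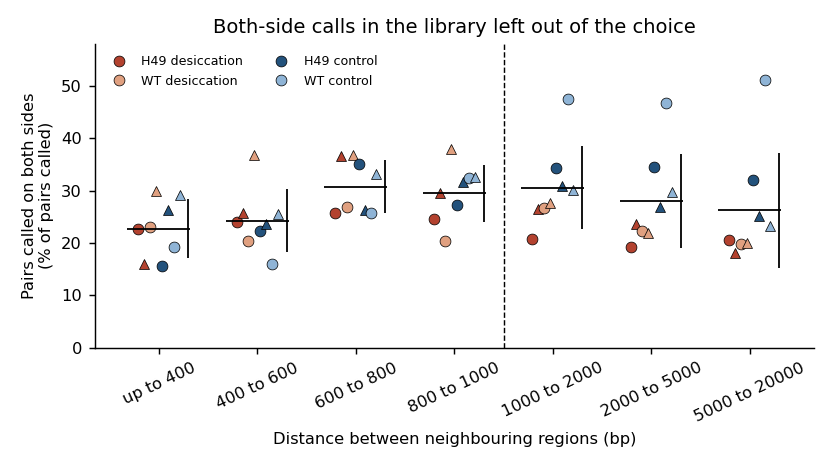
Share of neighbouring pairs called on both sides, in percent of pairs with any side called (vertical axis), by the distance between the regions in bp (horizontal axis), each in the library left out when the regions were chosen. Circles are replicate 1 and triangles replicate 2, with horizontal lines at the mean, vertical bars of 1 SD over 8 libraries and the limit of 1000 bp dashed. The highest points beyond the limit, 46.7% to 51.0%, are WT control replicate 1. A single summit within 200 bp of 2 regions counted for both.

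The pairs called together most often were strong on both sides in nearly every library. The first by the naming rule lay on chromosome 6, at Chr6:28400735-28400756 and Chr6:28401445-28401496, 729 bp apart. Its left side had −log10 p of 72.4 and 108 in H49 desiccation, 55.1 and 150 in WT desiccation, 66.9 and 311 in H49 control and 160 and 211 in WT control. Its right side had 83.2 and 75.7, 38.7 and 88.0, 76.3 and 309, and 180 and 214 in the same order of groups and replicates. The sides therefore had similar values within a library while libraries differed several-fold, and this value is not comparable between libraries because it grows with the number of reads. Positions are those of the deposited lists on MSU version 7 and give the first and last summit of a region.

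A cluster of 5 regions on chromosome 3 supplied the next pairs. Chr3:13644624-13644739 and Chr3:13645158-13645210 were 524 bp apart and called in all 8 libraries. Their −log10 p ran from 26.7 to 118 on the left and from 21.8 to 142 on the right. In the same cluster Chr3:13642869-13642911 and Chr3:13643555-13643614, 689 bp apart, were called in all 8 as well, at 13.2 to 127 and 31.6 to 143. In these 4 regions WT desiccation replicate 1 had the lowest value and WT control replicate 2 the highest.

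Other pairs called on both sides in all 8 libraries lay on chromosomes 12, 4 and 9. On chromosome 12 they were Chr12:13408231-13408275 with Chr12:13408837-13408859, 594 bp apart, and Chr12:21600162-21600208 with Chr12:21600697-21600736, 530 bp apart. The pair on chromosome 4, Chr4:32928223-32928297 with Chr4:32929143-32929146, was 877 bp apart. On chromosome 9 the pair was Chr9:4675150-4675207 with Chr9:4675755-4675948, 642 bp apart. The eighth pair, Chr9:16354330-16354358 with Chr9:16354954-16354991, was called on both sides in the 7 libraries other than WT desiccation replicate 1. Its −log10 p was 38.0 to 140 on the left and 37.2 to 127 on the right.

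Values of the 2 sides of a pair went together within a library. Among pairs called on both sides, Spearman's rho between the percentiles of left and right was 0.193 in WT desiccation replicate 1, over 155 pairs, and 0.412 to 0.735 in the other 7 libraries, over 145 to 305 pairs. The highest, 0.735, was that of WT desiccation replicate 2, over 151 pairs. Both sides of a pair share a library and a stretch of chromosome, so rho is given without a test.

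Of the 201 pairs never called together, the 5 named here had the most libraries that called exactly 1 side, 8 or 7. They are the extreme of the 201 pairs and do not stand for the rest. In them the side called changed from library to library. Chr12:20557727-20558026 was called in 6 libraries, at −log10 p of 29.7 to 112, and not in WT desiccation, where the 2 libraries instead called Chr12:20558484-20558533, 642 bp away, at 17.2 and 83.8. Chr9:4724544-4724688 was called in 6 libraries, at 12.2 to 73.3. The other 2 libraries, H49 desiccation replicate 2 and WT control replicate 2, called Chr9:4724927-4724994, 354 bp away, at 75.1 and 94.7. These libraries belong to different genotypes and treatments.

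A similar exchange was seen at the other 3 named pairs. Chr2:31964863-31965067 was called in 3 libraries and Chr2:31965290-31965461, 393 bp away, in the other 5. Chr1:38398671-38398910 was called in 6 libraries, at −log10 p of 4.32 to 17.3. Its neighbour Chr1:38399218-38399329, 498 bp away, was called in the remaining 2, at 29.5 in H49 control replicate 1 and 55.2 in WT control replicate 1. At 223 bp, the shortest spacing of all pairs, Chr9:1529833-1529856 was called in 4 libraries and Chr9:1530058-1530073 in 3 others, with WT desiccation replicate 1 calling neither.

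Opposite calls by group were few. In 24 of 1033 pairs one side was called in at least 2 libraries of one treatment and none of the other, while the neighbour had the reverse. Sorted by genotype the number was 29 pairs, and sorted by replicate number, which is no condition, it was 19.

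The response to desiccation was compared over the clustered regions that each library called. Desiccation libraries called fewer. The numbers were 562 and 600 in H49 desiccation and 622 and 446 in WT desiccation, against 898 and 767 in H49 control and 1000 and 819 in WT control. All 4 desiccation libraries lay below all 4 control libraries (557.5 ± 78.4 against 871 ± 101, SD, n = 4 each). The log2 difference was −0.65, with p = 0.0286 in an exact two-sided permutation test over 70 assignments, the smallest possible with 4 against 4. Its adjusted p was 0.171 over the 6 contrasts made, the lowest a single contrast can reach, so it did not pass and alone could not. The log2 difference was −0.52 in H49 and −0.78 in WT, which were not tested separately. Regions were chosen on these same 8 lists, without use of the group labels, and all 4 desiccation lists (2193 to 2691 summits) were shorter than all 4 control lists (3176 to 9348). Regions recurrent through control lists alone entered the count. Of the clustered regions, 122 were called in at least 3 control and no desiccation libraries, and 14 in the reverse. A change in binding and a shorter list cannot be told apart by this test. With the 2172 strongest summits of each list, regions were chosen anew, which gave 803 clustered regions. The log2 difference was then −0.03 (p = 0.771, same exact test). Lists of equal length draw these numbers together by construction, and the cause of the difference in the full lists was not tested. Leaving out WT control replicate 1, also with regions chosen anew, gave −0.42.

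Relative to all recurrent regions of a library, clustered ones were not detectably more or less frequent under desiccation. Their share was 34.0% and 37.9% in H49 desiccation and 33.0% and 37.2% in WT desiccation, against 31.5% and 32.5% in H49 control and 26.4% and 38.4% in WT control. The treatments overlapped, at 35.5% ± 2.41 under desiccation and 32.2% ± 4.91 in control (SD, n = 4 each). The difference of 3.32 percentage points had p = 0.229 in the exact permutation test (adjusted p = 0.686), and without WT control replicate 2, the highest control, it was 6.62 with adjusted p = 0.0857 in that test. Without H49 desiccation replicate 2 it was 1.69, and without WT control replicate 1 it was 2.05. The share was higher in replicate 2 than in replicate 1 in all 4 groups, by 5.29 percentage points on average.

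Calls on both sides of a pair did not separate the treatments. The share was 27.2% and 32.8% in H49 desiccation and 26.9% and 38.1% in WT desiccation, against 34.5% and 30.01% in H49 control and 36.6% and 32.5% in WT control. The difference of −2.15 percentage points had p = 0.514 in the exact permutation test (adjusted p = 0.771). Its sign turned with several settings, and the alternatives ran from −8.06 to 10.97 percentage points.

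**Figure D3:**
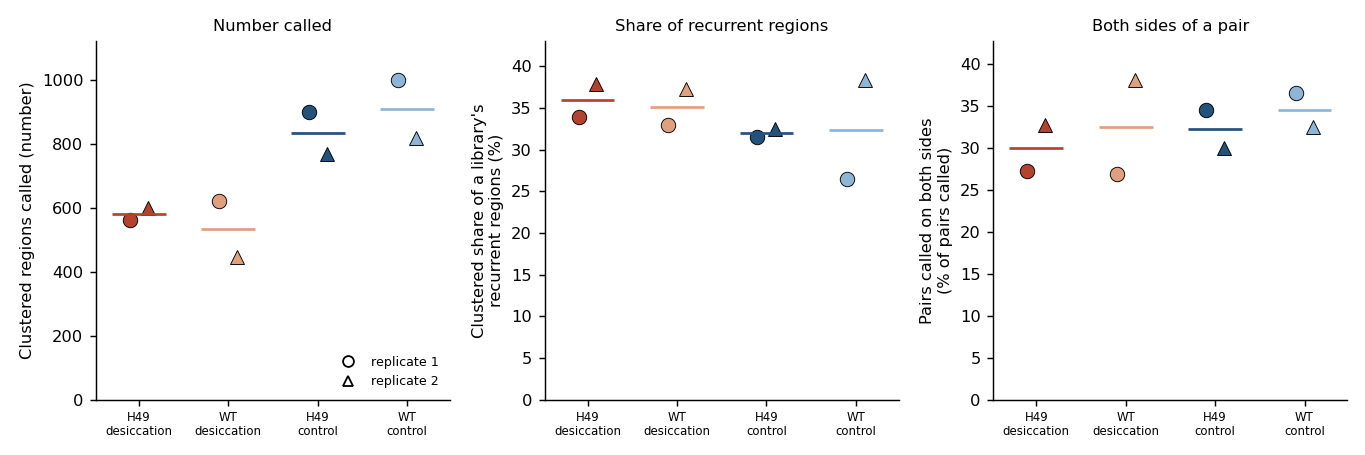
Clustered regions by library in the 4 groups, with circles for replicate 1, triangles for replicate 2 and lines at the group mean of 2 libraries. The left panel gives the number of clustered regions called, from 446 to 622 under desiccation and from 767 to 1000 in control. The middle panel gives their share of a library's recurrent regions and the right panel the share of called pairs with both sides called, both in percent and both overlapping between treatments.

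Over-expression made no detectable difference to any of these measures. H49 libraries called 707 ± 156 clustered regions and WT libraries 722 ± 240 (SD, n = 4 each), a log2 difference of 0.01 (exact permutation p = 1, adjusted p = 1). The clustered share of recurrent regions was 34.0% ± 2.81 in H49 and 33.8% ± 5.41 in WT, a difference of 0.21 percentage points (exact permutation p = 0.914, adjusted p = 1). Both sides were called in 31.1% ± 3.22 of pairs in H49 and in 33.5% ± 5.01 in WT, a difference of −2.40 percentage points (exact permutation p = 0.457, adjusted p = 0.771). The first 2 differences changed sign when single libraries were left out.

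Single clustered regions were also sorted by the libraries that called them. Regions that 3 or 4 control libraries but no desiccation library called numbered 122 of the 1751 clustered regions (6.97%), and over all 5310 recurrent regions 8.12% met this criterion. In the other direction 14 clustered regions (0.8%) were called in at least 3 desiccation libraries and in no control library, against 0.866% of all. For H49 against WT the number was 16 (0.914%), against 0.753% of all, and for WT against H49 it was 13 (0.742%), against 0.716% of all. The clustered shares were near those of all recurrent regions in each of the 4 sets.

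The neighbours of these one-sided regions were then looked up in the opposite group. All 16 clustered regions found in H49 and not in WT had a neighbour within 1000 bp that was called in at least 1 WT library, and all 13 found in WT and not in H49 had one called in at least 1 H49 library. Over all 1751 clustered regions the same held for 94.2% and 91.0%, so these counts are near the background. Of the 14 regions found under desiccation and not in control, 10 had a neighbour called in a control library, against 94.3% of all clustered regions. Of the 122 found in control and not under desiccation, 52 (42.6%) had a neighbour called in a desiccation library, against 72.5% of all. These differences were not tested.

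Named by the rule, the first clustered region found in control and not under desiccation was Chr4:34981245-34981704, called in H49 control at −log10 p of 28.4 and 15.2 and in WT control at 38.5 and 10.1. Chr1:28946795-28946894 followed, at 8.14 and 10.6 in H49 control and 23.5 and 10.6 in WT control. Chr3:5988954-5989041 (9.17 to 12.03) and Chr1:40815619-40815723 (6.46 to 29.9) were called in all 4 control libraries too. None of the 4 had a summit in any desiccation library.

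Among the regions found under desiccation and not in control, Chr3:31604165-31604348 was called in all 4 desiccation libraries, at 9.85 and 3.27 in H49 and 9.52 and 4.55 in WT. Chr9:14508031-14508051 and Chr5:12983933-12983949 were found by both H49 libraries under desiccation and by WT desiccation replicate 2, at 14.3 to 37.3 and 7.84 to 38.5. Chr1:27325596-27325611 was found by both H49 libraries under desiccation and by WT desiccation replicate 1, at 7.61 to 13.9.

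Among regions found in H49 and not in WT, those called in all 4 H49 libraries were Chr2:27888733-27889039 (5.29 to 11.3) and Chr4:26361237-26361371 (3.52 to 7.22). Chr9:1530058-1530073, the right side of the pair with the shortest spacing, and Chr5:26093706-26093946 were called in 3. In the opposite set Chr2:26144043-26144138 (10.4 to 15.5) and Chr2:5931479-5931647 (4.17 to 29.99) were called in all 4 WT libraries, and Chr7:27890324-27890420 and Chr3:6756418-6756485 in 3. Whether any of these lies at a named gene was not analysed here, because no gene positions on MSU version 7 were used.

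The largest clusters showed different patterns. The cluster with most regions held 9 within 5452 bp, Chr12:13400151-13405603. Its neighbours were 410 to 873 bp apart, with a median of 759 bp. H49 desiccation called 7 and 7 of the 9 regions, WT desiccation 2 and 9, H49 control 7 and 9 and WT control 6 and 7. Its strongest regions were Chr12:13404792-13404800, called in all 8 libraries at −log10 p of 27.6 to 137, and Chr12:13400151-13400174, called in 7 at 53.9 to 137. Chr12:13400563-13400589 and Chr12:13401384-13401384 were called only in WT desiccation replicate 2 and H49 control replicate 2. The cluster lies at the start of a bin whose neighbour was left out as dense, and regions there were not counted.

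Both 8-region clusters lay near each other on chromosome 6, with a cluster of 4 regions between them. The first, Chr6:23573367-23578825, had neighbours 619 to 986 bp apart. H49 desiccation called 3 and 8 of its regions, WT desiccation 0 and 8, H49 control 0 and 2 and WT control 0 and 8. The second, Chr6:23586533-23591572, was called at 2 and 7 regions in H49 desiccation, 0 and 5 in WT desiccation, 0 and 4 in H49 control and 1 and 6 in WT control. In both clusters replicate 2 called more regions than replicate 1 in all 4 groups. In the regions that WT desiccation replicate 2 called, its −log10 p was the highest of all libraries, at 30.1 to 51.7, in a list whose median is 19.9.

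The cluster of 7 regions on chromosome 9, Chr9:18757872-18762023, was called in all 8 libraries but completely in none. H49 desiccation called 4 and 1 regions, WT desiccation 5 and 1, H49 control 3 and 5 and WT control 4 and 3. Values were moderate, at most 36.2, and the regions called changed between libraries. The 7-region cluster Chr1:29842512-29845311 was weaker still. Each of its regions was called in exactly 2 lists, at −log10 p of 3.91 to 23.2, and WT control replicate 2 called 5 of the 7.

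**Figure D4:**
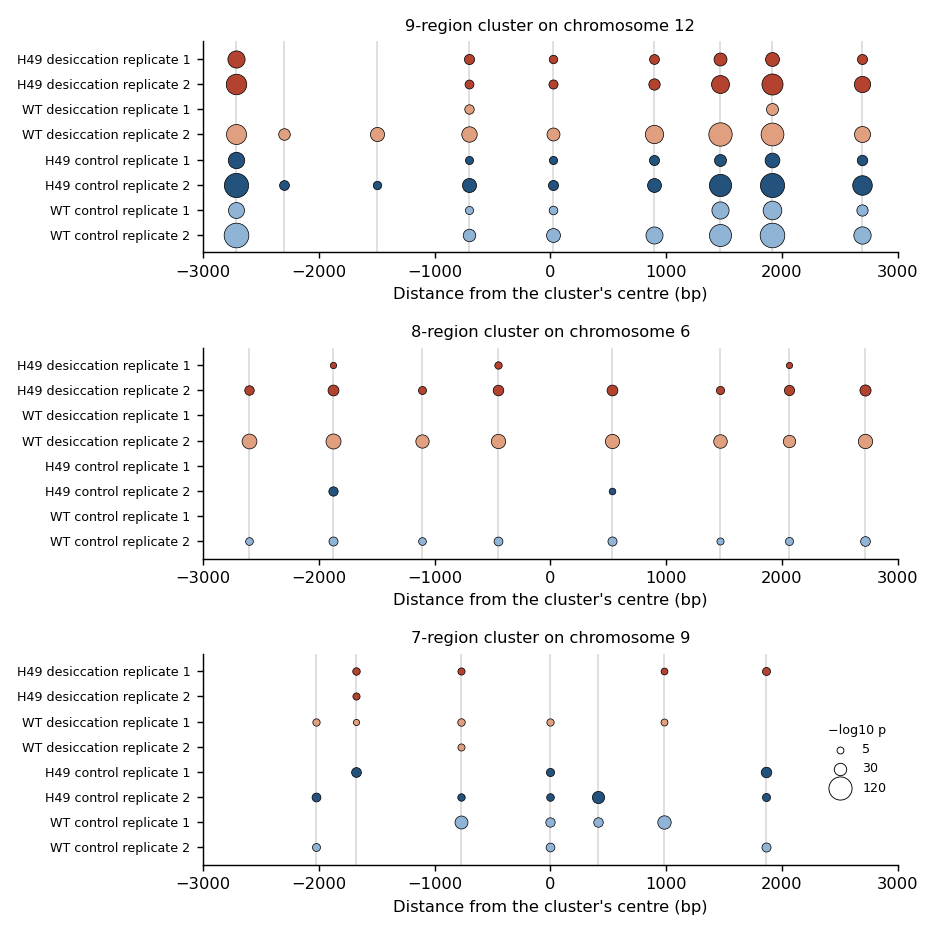
Clusters of 9, 8 and 7 regions drawn by distance in bp from the cluster's centre (horizontal axis), 1 row per library. Each circle is a called region, its area growing with −log10 p, and grey lines mark the regions. The cluster on chromosome 12 was called in every library, that on chromosome 6 mainly in 3 of the replicate 2 libraries, and that on chromosome 9 by different regions in different libraries.

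Clusters occurred on all 12 chromosomes but not evenly. The clustered share of recurrent regions was 27.7% to 36.6% on 10 chromosomes, 48.4% on chromosome 9 (147 of 304) and 16.1% on chromosome 11 (23 of 143). In single libraries it ranged from 43.0% to 67.0% on chromosome 9 and from 4.55% to 16.5% on chromosome 11. The chromosome 9 shares include the tract at its start, described below. WT desiccation replicate 2, the library at 67.0%, called 28 clustered regions there. Chromosome 11 also had the fewest recurrent regions. The rule fixes which regions are clustered, so these shares are given without a test.

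**Figure D5:**
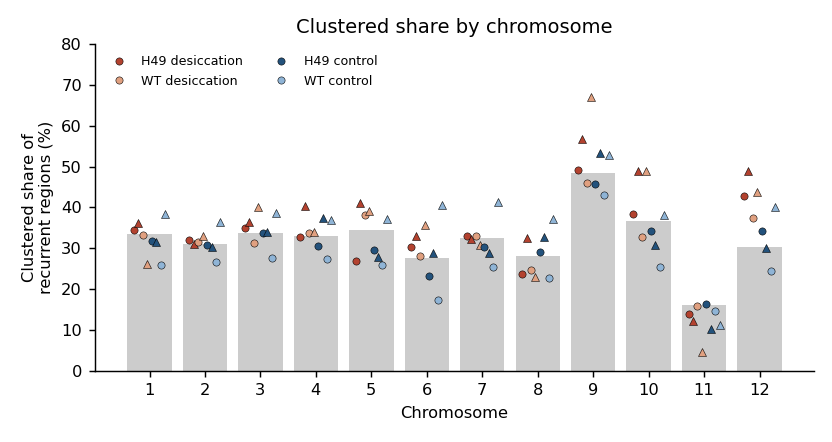
Share of recurrent regions that are clustered, in percent (vertical axis), on each of the 12 chromosomes (horizontal axis). Grey bars pool the regions of all libraries, and points are single libraries, circles for replicate 1 and triangles for replicate 2, in the order of the groups. Chromosome 9 has the tallest bar, 48.4%, and chromosome 11 the shortest, 16.1%.

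Most clusters were scattered, with a median of 2 clustered regions in each of the 498 bins of 100 kb that held any. The bin with most, 34 regions in 12 clusters, was the first of chromosome 9. There 35 recurrent regions followed each other from position 1195 to 37250, 440.5 to 3257 bp apart with a median of 911 bp. The bin was singled out after its values were seen. Without it, chromosome 9 had 113 clustered among 269 recurrent regions (42.0%).

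That tract was called unevenly. H49 desiccation called 1 and 6 of its 35 regions, WT desiccation 0 and 29, H49 control 0 and 20 and WT control 30 and 14. Its peaks were weak, with a median −log10 p of 8.20, a median percentile of 39.9 within the lists and a highest value of 45.5. No region of it was called in more than 5 lists, and 18 of 35 were called in 2. Of the 6 regions called in 5 lists, those starting at 2001, 9927, 17852, 25832 and 33711 followed at near-even steps. They were called by the same libraries at similar −log10 p, 40.2 to 45.5 in WT desiccation replicate 2 and 10.8 to 12.5 in H49 desiccation replicate 2. The remaining region, starting at 22098, had 10.3 and 3.79 there. Why these steps recur was not tested. The next bins were the one on chromosome 6 that holds the 8-region clusters, with 22 clustered regions, and the one on chromosome 12 from 13400001, with 14. A bin on chromosome 10, from 20400001, held 13 clustered regions, called at 5 and 12 in H49 desiccation, 0 and 10 in WT desiccation, 0 and 0 in H49 control and 0 and 10 in WT control.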

How the data were processed

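Summits of 8 ChIP libraries of OsHOX24 were analysed; the inputs were not used. Per the labels' design text, the authors cleaned reads with NGS QC Toolkit, aligned them by Bowtie2 to the MSU version 7 genome and called peaks by MACS2. The submitters' processing notes give its version as 2.1.1.20160309. The version of Bowtie2 and any use of inputs as background are not stated there. The deposited value of each summit is the −log10 of the p-value, as read from the MACS2 summit format and a lowest value close to 3. It grows with depth, which is unknown, and was used only within a list or to describe single regions. One damaged peak name was kept, since its position and value were intact. Regions, neighbours and tests were computed with Python 3.11.15, NumPy 2.4.6 and pandas 2.3.3, and were tested on simulated data.

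Libraries were compared by exact permutation over 70 assignments, with Benjamini-Hochberg adjustment over 6 contrasts, and by sign-flip over 8 libraries for lists left out (3 tests). Regions were named by a fixed rule: the 5 clusters with most regions, the 8 pairs called on both sides by most libraries, 5 pairs never called together, up to 4 regions per one-sided set and the pairs nearest to the limit. Members, lists and rule were chosen with earlier results of these data known. Motifs, base composition and gene positions, planned as well, were not analysed, as no genome of this build was used. Alternatives were other merging distances, list minima, spacing limits, dense-bin rules, strength filters, each library left out and a replicate block.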

Additional observations from a re-analysis of the deposited data

Results flagged for a closer look

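In the comparison on left-out lists, WT control replicate 1 lay far below the other libraries: it called clustered regions 19.7 percentage points less often than lone ones, a difference of −19.73. The other 7 differences, clustered minus lone, lay between −1.98 and 7.84. Such a gap turns up by chance in about 1 of 20 groups, and 1 of 15 groups examined showed it. This library has the longest list, and the part of list length in the gap was not tested.

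Outside the 12 chromosomes, the 56 summits on ChrUn and ChrSy formed 7 recurrent regions, of which 2 lay within 1000 bp of each other. They entered no comparison.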

How the results depend on the processing

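Of 203 alternative values under 20 settings, 156 stayed the same, 33 changed sign, 13 moved and 1 passed the threshold newly, and the causes were not tested. For a contrast, the same means equal direction and side of the threshold, and for the numbers of regions and clusters a value near the main one. No main contrast had passed, so staying on that side of the threshold is no measure of stability. The 1751 clustered regions in 718 clusters became 797 in 364 with merging up to 500 bp, 557 in 245 with at least 3 lists, 520 in 246 with a limit of 500 bp, 2643 regions with 2000 bp, 405 in 185 with the upper 50% of each list and 803 in 342 with equal numbers of the strongest summits. Leaving out 1 library gave 1098 to 1636 regions in 459 to 683 clusters. Desiccation minus control in pairs called on both sides turned to 0.0233 percentage points with merging up to 100 bp, 0.624 with a limit of 500 bp, 1.07 with dense bins kept, 5.40 with the upper 50% and 10.97 with equal numbers, and grew to −8.06 with merging up to 500 bp, −7.37 with a limit of 2000 bp and −4.32 with dense bins at 0.25% (−5.21 to −0.907 without single libraries). H49 minus WT in the number called turned to −0.055 (merging up to 500 bp) and −0.017 (limit of 2000 bp) on the log2 scale, −0.20 to 0.12 without single libraries. For the clustered share, H49 minus WT turned to −0.451 (500 bp merging), −0.0200 (3 lists), −0.299 (limit of 2000 bp), −0.170 (upper 50%) and −0.0581 (equal numbers), −2.42 to 1.15 without single libraries. In pairs called on both sides H49 minus WT turned to 0.926 (3 lists) and 0.552 (equal numbers), −4.48 to −0.590 without single libraries. Desiccation minus control kept its sign without single libraries, at −0.74 to −0.42 (log2 number) and 1.69 to 6.62 (share). In left-out lists, the calls of clustered minus lone regions turned to 2.59 (500 bp merging), 0.308 (3 lists) and 0.0430 (dense bins kept), −1.97 to 1.97 without single libraries. The rank difference was 8.68 with 3 lists, 7.58 with 500 bp merging and 6.33 with dense bins kept, and turned to −3.15 (limit of 500 bp), −1.55 (2000 bp) and −3.06 (dense bins at 0.25%), −0.41 to 3.39 without single libraries. The pair difference was −8.09 with a limit of 500 bp and turned to 0.284 (100 bp merging), 4.66 (500 bp merging), 3.06 (3 lists) and 0.727 (limit of 2000 bp), −3.51 to 1.48 without single libraries. In left-out lists the window around a region followed the merging distance, so 1 summit could more easily count for both sides with 500 bp merging. With the replicate block the log2 number, desiccation minus control, stayed at −0.65 (exact sign-flip p = 0.125, adjusted p = 0.5). As 0.125 is the smallest p that 4 pairs allow, no contrast could pass under the block, which says nothing about stability. The difference in calls between replicate 1 and replicate 2 of a group was correlated between groups, over the recurrent regions outside dense bins. Its r was 0.0376 to 0.209 over 6 group pairs, too low in some for the numbers to be taken as pairs. Replicate 2 nevertheless had the higher clustered share in all 4 groups, and a shared origin of same-numbered libraries was not tested. Comparisons of motifs, base composition and gene position were not run. Read depth is unknown, and with 4 libraries against 4 the adjusted p of a single contrast out of 6 cannot go below 0.171 unless other contrasts reach equally small p-values.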
